A study of Mus musculus with 8 samples.

Results

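The 47 features described here are the long terminal repeat (LTR) retroelement families in a deposited table of repeat expression, out of 71 repeat features in all. They were taken by their repeat type, every row typed as LTR, and divided into 20 features of ERVK, 14 of ERV1, 4 of ERVL, 2 of ERVL-MaLR, 5 of Gypsy (2 of them typed with a question mark) and 2 of no named class. By name, 18 are internal parts, the coding stretch between the repeats of an element, and 29 are the terminal repeats themselves, called LTRs below.

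The series measured RNA in mouse intestinal crypts and stem cells with and without Setdb1, an enzyme that methylates lysine 9 of histone H3. Each of its 8 groups holds 1 library. The stem cell pair came from C57BL/6 mice aged 8 weeks that all carry Lgr5-EGFP-ires-CreERT2, which drives a tamoxifen-inducible recombinase from the Lgr5 promoter. The control (ISC_WT) was setdb1fl/+, with 1 floxed allele, so it is not an animal with wild-type alleles alone, and the mutant (ISC_MUT) was setdb1fl/fl. The labels give 200 mg/kg tamoxifen on 3 days for the fl/fl animals and do not name a dose for the fl/+ animals, the time to harvest or the number of mice per library. RNA of these libraries was depleted of ribosomal RNA rather than selected for polyadenylated ends.

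Headers of the repeat table read WT and MT and name no tissue. MT was taken as ISC_MUT, the only title in the series marked as a mutant in that way, and WT as its partner ISC_WT, although a crypt control is also titled WT. No gene values of these 2 libraries were analysed here, so neither the loss of Setdb1 nor the stem cell label could be checked against genes.

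LTR retroelements are remnants of retroviral insertions, with regulatory LTRs on both sides of the gag, pol and env region. ERV1 holds relatives of gammaretroviruses such as murine leukemia virus, ERVK holds relatives of betaretroviruses such as intracisternal A-particles and mouse mammary tumor virus, and ERVL and MaLR are older classes. Zinc finger proteins recruit Trim28 and SETDB1 to many of these elements, where methylation of H3 lysine 9 holds them silent. Old Gypsy fragments survive in mammals as short degraded copies.

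In the MT library, on the scale as deposited, most internal parts and most LTRs of mouse and rodent families were higher than in WT, led by an IAP family and by families of the MMERVK10D group, while most families shared among mammals were lower. Divided by the median ratio of the rows that are not LTR, 18 of the 47 features rather than 29 lie above WT, as given with ribosomal RNA below. Those rows were themselves selected for a difference on this contrast, so their median is not a neutral reference. As deposited, 29 of the 47 features were higher in MT and 18 lower. Of all 71 rows 44 were higher and 27 lower, and of the 24 rows that are not LTR 15 and 9. The share of higher LTR features is therefore near that of the whole table. At least 2-fold differences were found in 18 features in the higher direction and in 11 in the lower one. Over all 71 rows of the table the same 2-fold rule takes 32 rows, or 45.1%, in the higher direction and 20, or 28.2%, in the lower one. Of the 24 rows that are not LTR it takes 58.3% and 37.5%. The median log2 ratio of MT to WT was 0.90 over the 47 features and 1.03 over the 23 rows that are not LTR and have a ratio. With 1 library per column no difference has a replicate check, and none was tested. In bulk RNA, fewer cells of a type and less RNA per cell cannot be told apart.

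The table is a selection by the authors on this same contrast, so the direction and size of its rows describe the selected families and support nothing beyond them. The adjusted p-values in the authors' deposited table imply 1361 repeat features, of which the 71 deposited rows, 5.22%, lie under an adjusted p of 0.05. The highest adjusted p among LTR rows of the authors' deposited table is 0.0458, of IAPLTR4_I, and features just past it were not analysed here. The p-values in the authors' deposited table were matched to a median of 0.0232 log10 units by the tail of a split of each row's reads between the 2 libraries, with the coefficient of variation between replicates set at 0.1. The median gap was 0.799 with 0.08 and 0.639 with 0.12. An assumed value of that kind contains no measured spread between mice.

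Values below are CPM as deposited, read counts scaled to a common library size, and they are neither per length nor per copy, so levels of different families are shares of reads and not ranks of expression. Every value was a whole multiple of 1 step, to within 6.32e-05 of a read, and 1 read was worth 0.0996 CPM in WT and 0.113 CPM in MT. That gives the reads behind each value and the totals to which the CPM are scaled, in units of 1e+06 reads, of 10.04 and 8.82. These totals are not whole numbers of reads, so they need not be the plain read totals of the libraries. Intervals after a ratio are 95% exact intervals for counting error alone, which say nothing of the spread between animals. Reads of related families can map to many places, so features that resemble each other, such as the MuLV, IAP and 10D names, are uncertain as single values.

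**Figure D1:**
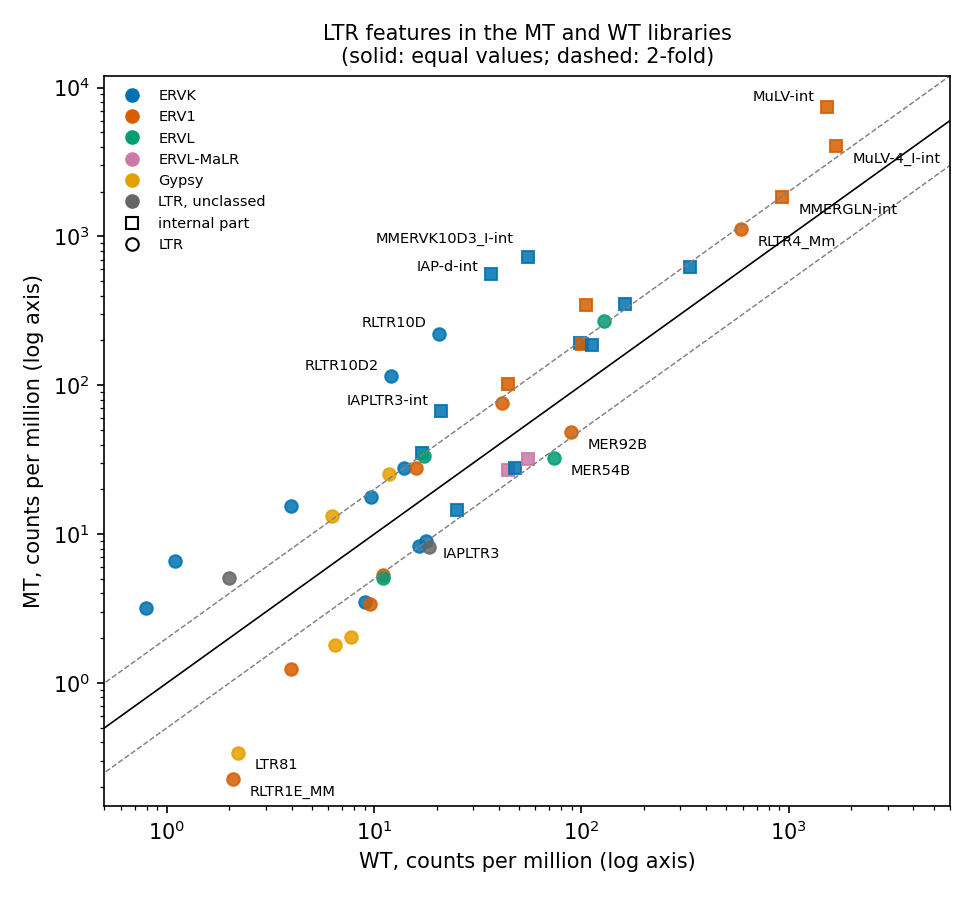
CPM of 47 LTR features in the WT library (horizontal, log axis) and the MT library (vertical, log axis), coloured by class, with squares for internal parts and circles for LTRs. IAP-d-int, MMERVK10D3_I-int, RLTR10D and RLTR10D2 lie farthest above the upper dashed 2-fold line, and the MuLV internal parts have the highest values in both libraries.

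Among ERVK internal parts, IAP-d-int, of the intracisternal A-particle family whose particles bud inside the cell, was at 36.6 CPM in WT (367 reads) and 564 CPM in MT (4974 reads). This ratio of 15.4 (13.9 to 17.2) was the highest of the 47. MMERVK10D3_I-int, the internal part of a mouse ERVK family, was at 55.3 CPM in WT and 722 CPM in MT, a ratio of 13.1 (11.98 to 14.3).

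LTRs with 10D in their names followed it closely. RLTR10D was at 20.6 CPM in WT and 223 CPM in MT, a ratio of 10.8 (9.35 to 12.5), and RLTR10D2 was at 12.1 and 115 CPM, a ratio of 9.52 (7.87 to 11.6). Internal part and LTRs of these names were therefore high in MT together, and the sums over the 3 features were 88.0 CPM in WT and 1060 CPM in MT, a ratio of 12.05. They were grouped after their values were seen. With IAP-d-int they held 124.5 of the 1017 CPM of ERVK in WT and 1623 of 3215 CPM in MT.

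Apart from these 4 features, 11 of 16 ERVK features were higher in MT, with a ratio of their sums of 1.78. MMERVK10C-int, a related mouse family with many copies, was at 335 CPM in WT and 622 CPM in MT, a ratio of 1.86 (1.78 to 1.94). RLTR45-int was at 162 and 354 CPM, a ratio of 2.19 (2.06 to 2.32), and RLTR44-int at 113 and 187 CPM, a ratio of 1.66 (1.54 to 1.79). These 3 rodent internal parts rest on at least 1134 reads in each library, so their counting intervals are narrow.

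ERVB features are betaretrovirus-like families of the mouse. ERVB5_1-I_MM was at 17.0 CPM in WT and 34.9 CPM in MT, a ratio of 2.05 (1.69 to 2.49). For ERVB4_2 both parts were in the table and both were higher in MT. The internal part ERVB4_2-I_MM was at 98.5 and 194 CPM, a ratio of 1.97 (1.82 to 2.13), and the LTR ERVB4_2-LTR_MM was at 3.98 and 15.4 CPM, a ratio of 3.87 (2.70 to 5.65), from 40 and 136 reads.

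The RLTR46 LTRs were higher in MT in all 3 named forms, at low values. RLTR46A2 was at 1.10 CPM in WT (11 reads) and 6.57 CPM in MT (58 reads), a ratio of 6.00 (3.12 to 12.7). RLTR46A went from 8 reads to 28, with an interval of its ratio from 1.77 to 10.1. RLTR46B, with 140 and 245 reads, had a ratio of 1.99 (1.61 to 2.47), and RLTR47, another rodent LTR, was at 9.66 and 17.7 CPM. The 2 forms with the highest ratios are those with under 100 reads.

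IAP names did not move as 1 group. IAPLTR3-int, an internal part, was at 21.1 CPM in WT and 66.7 CPM in MT, a ratio of 3.16 (2.70 to 3.72). Its LTR partner IAPLTR3 was at 17.7 CPM in WT and 8.95 CPM in MT, which is 1.98-fold lower (1.51 to 2.62). The internal part therefore stood at 1.19 times the CPM of its LTR in WT and at 7.46 times in MT. IAPLTR4_I, a further internal part, was at 25.2 and 14.6 CPM, 1.72-fold lower (1.39 to 2.15).

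The remaining ERVK features lower in MT were MMTV-int, BGLII_C and RLTR3_Mm. MMTV-int, the internal part of mouse mammary tumor virus, was at 47.7 CPM in WT and 27.8 CPM in MT, 1.72-fold lower (1.47 to 2.01). BGLII_C, a rodent LTR, was at 16.5 and 8.27 CPM, and RLTR3_Mm, a mouse LTR, at 9.06 and 3.51 CPM. RLTR3_Mm was the only ERVK feature at least 2-fold lower, by 2.58-fold (1.70 to 4.01).

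**Figure D2:**
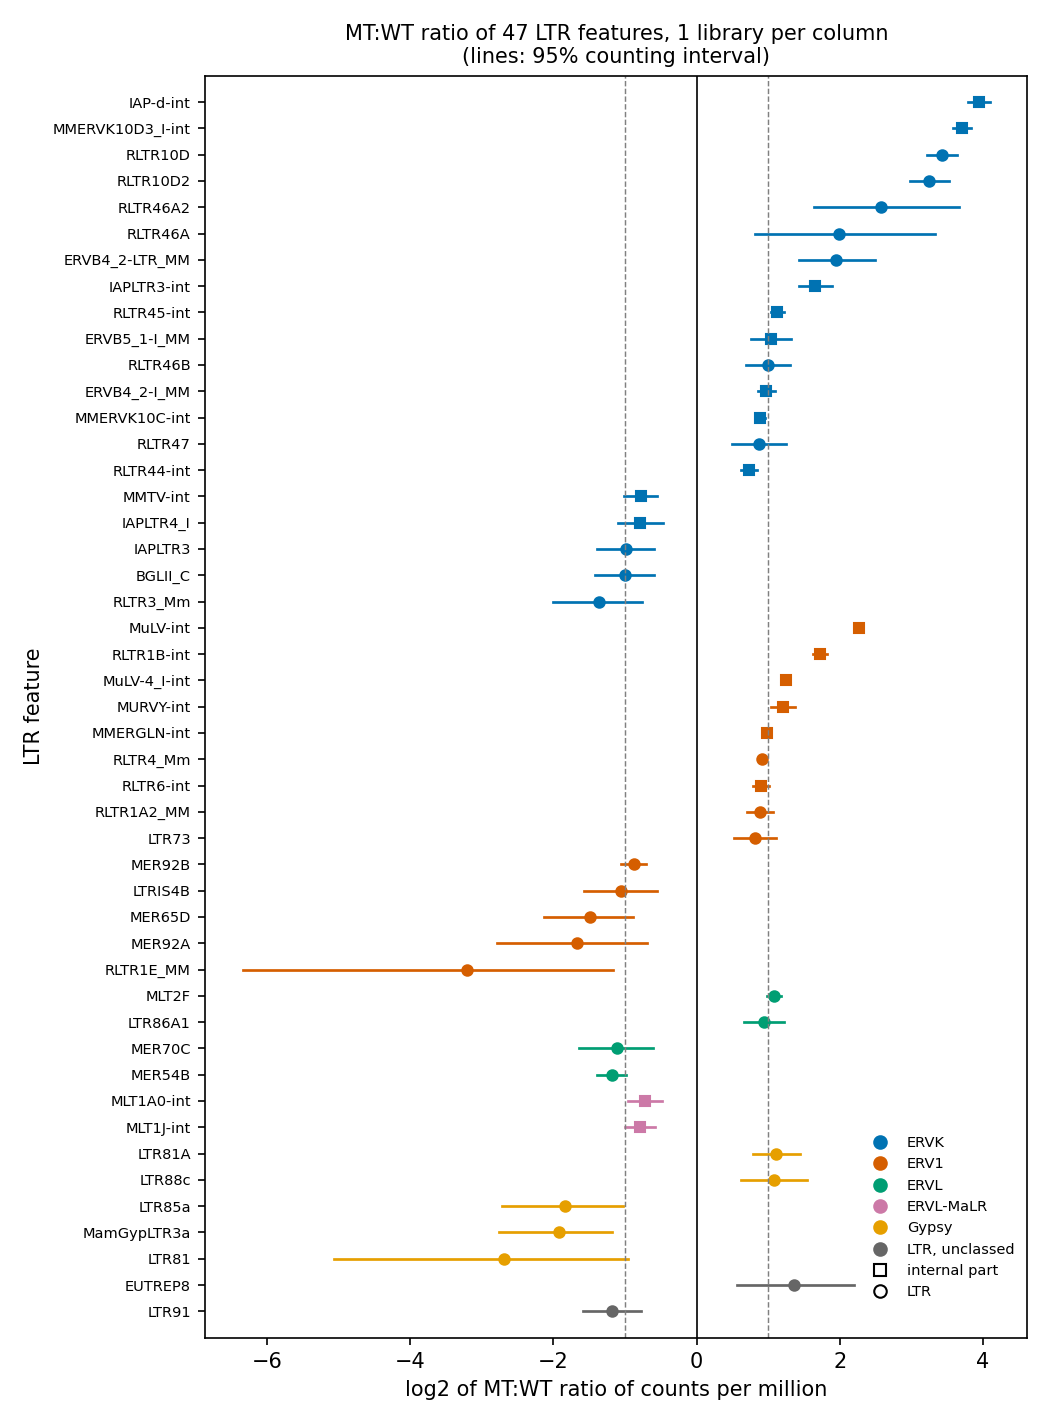
Log2 of the MT to WT ratio of CPM (horizontal) for each of the 47 LTR features (vertical), grouped by class and sorted within it, with squares for internal parts, circles for LTRs and lines for the 95% counting interval. As deposited, all 6 ERV1 internal parts lie right of 0, 5 of 8 ERV1 LTRs lie left of it, and the widest intervals belong to RLTR1E_MM and LTR81, with 2 and 3 reads in MT.

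ERV1 internal parts, relatives of gammaretroviruses, were higher in MT in 6 of 6 cases. MuLV-int, of murine leukemia virus, was at 1527 CPM in WT (15327 reads) and 7391 CPM in MT (65220 reads), a ratio of 4.84 (4.76 to 4.93). MuLV-4_I-int was at 1683 and 4022 CPM, a ratio of 2.39 (2.35 to 2.43). These 2 features held 49.0% of the summed LTR value in WT and 60.6% in MT. Without them the sum over the other 45 features was 2.22 times as high in MT as in WT, against 2.88 with them.

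RLTR4_Mm, the LTR paired with MuLV, was at 590 CPM in WT and 1117 CPM in MT, a ratio of 1.89 (1.83 to 1.96). The MuLV internal part thus stood at 2.59 times the CPM of that LTR in WT and 6.62 times in MT. Unlike the IAPLTR3 pair, both parts were higher in MT, and the internal part had the larger ratio.

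MMERGLN-int, the internal part of the GLN family, was at 925 CPM in WT and 1838 CPM in MT, a ratio of 1.99 (1.94 to 2.04). RLTR1B-int, named for the LTR of the same family, was at 105 and 347 CPM, a ratio of 3.30 (3.08 to 3.54). RLTR6-int was at 101 and 189 CPM, a ratio of 1.87 (1.73 to 2.02). These 3 internal parts span a smaller range of ratios than the ERVK internal parts do.

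MURVY-int, the internal part of a murine retrovirus family known for its copies on the Y chromosome, was at 44.4 CPM in WT and 103 CPM in MT, a ratio of 2.31 (2.06 to 2.60). The labels do not give the sex of the mice.

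ERV1 LTRs were divided. RLTR1A2_MM, a mouse LTR, was at 41.2 and 76.3 CPM, a ratio of 1.85 (1.63 to 2.10), and LTR73, shared among mammals, at 15.9 and 28.0 CPM, a ratio of 1.76 (1.43 to 2.16). With RLTR4_Mm these were the 3 that were higher, all under 2-fold. Among the 5 lower ones, MER92B, an old mammalian LTR, was at 88.9 CPM in WT and 48.3 CPM in MT, 1.84-fold lower (1.64 to 2.07). MER65D, with 96 and 30 reads, was at 9.56 and 3.40 CPM, 2.81-fold lower (1.85 to 4.39).

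The other lower ERV1 LTRs, like MER65D, had few reads. LTRIS4B, a mouse LTR, had 111 reads in WT and 47 in MT, and MER92A had 40 and 11. RLTR1E_MM had 21 reads in WT and 2 in MT, a ratio of 0.108 with a counting interval from 0.0123 to 0.443. None of the ERV1 LTRs was 2-fold higher, and 4 of 8 were at least 2-fold lower.

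ERVL features, all LTRs here, were divided evenly. MLT2F was at 129 CPM in WT and 272 CPM in MT, a ratio of 2.11 (1.97 to 2.26), and LTR86A1 at 17.3 and 33.3 CPM, a ratio of 1.92 (1.59 to 2.33). MER54B was at 73.9 and 32.5 CPM, 2.27-fold lower (1.98 to 2.61), and MER70C at 11.1 and 5.10 CPM, 2.17-fold lower (1.52 to 3.14). All 4 are old families whose copies are spread over mammalian genomes.

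Both ERVL-MaLR features, internal parts of old nonautonomous elements, were lower in MT and under 2-fold. MLT1A0-int was at 44.2 and 26.9 CPM, 1.65-fold lower (1.40 to 1.94), and MLT1J-int at 55.5 and 32.2 CPM, 1.72-fold lower (1.49 to 1.996).

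Gypsy LTRs also went both ways. LTR81A was at 11.8 CPM in WT and 25.4 CPM in MT, a ratio of 2.16 (1.72 to 2.72), and LTR88c, typed as Gypsy with a question mark, at 6.28 and 13.3 CPM, a ratio of 2.11 (1.54 to 2.92). MamGypLTR3a went from 78 reads to 18, 3.81-fold lower (2.26 to 6.76), and LTR85a from 65 reads to 16, 3.57-fold lower (2.04 to 6.61). LTR81, with 22 reads in WT and 3 in MT, had a ratio of 0.155 with an interval from 0.0297 to 0.516. The 2 higher members have over 100 reads each and the 3 lower ones under 100.

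Of the LTR features without a class, EUTREP8 was at 1.99 CPM in WT (20 reads) and 5.10 CPM in MT (45 reads), a ratio of 2.56 (1.48 to 4.58). LTR91 was at 18.4 and 8.16 CPM, 2.26-fold lower (1.71 to 3.01).

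**Figure D3:**
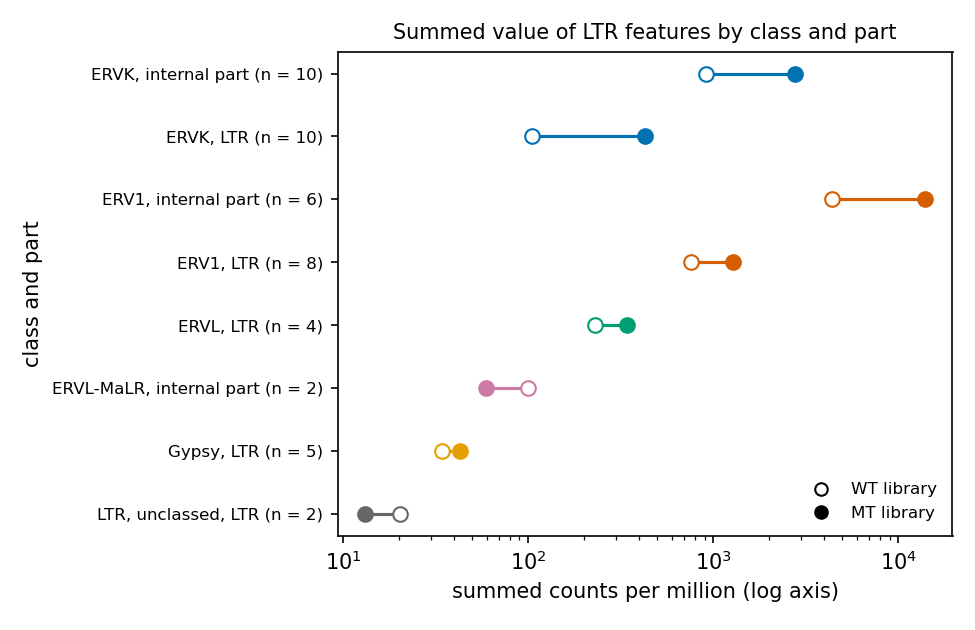
Summed CPM (horizontal, log axis) of LTR features by class and part (vertical), with open circles for the WT library and filled circles for MT. On the scale as deposited, ERV1 internal parts hold the highest sum in both libraries, at 4385 and 13890 CPM, and the 2 ERVL-MaLR features and the 2 without a class are the only sums that were lower in MT.

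Summed over all 47 features, the LTR value was 6550 CPM in WT and 18843 CPM in MT, which is 0.655% and 1.88% of the scaled libraries. ERV1 held 78.6% of it in WT and 80.5% in MT, and ERVK 15.5% and 17.1%. The 4 ERVL features held 3.53% and 1.82%, the ERVL-MaLR pair 1.52% and 0.313%, the Gypsy features 0.526% and 0.227%, and those without a class 0.312% and 0.0704%. Sums were 2.95 times as high in MT for ERV1, 3.16 times for ERVK and 1.48 times for ERVL. MLT2F alone held 272 of the 343 CPM of ERVL in MT, and the median log2 ratio of the 4 ERVL features was -0.09. For Gypsy the sum was 1.24 times as high, while the median log2 ratio was -1.84.

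Internal parts and LTRs differed in how many were lower. Of the 18 internal parts, 14 were higher in MT, 9 of them at least 2-fold, and none was 2-fold lower. Of the 29 LTRs, 15 were higher, 9 of them at least 2-fold, and 11 were at least 2-fold lower. Over all 71 rows, 44 were higher and 27 lower, and the 2-fold shares are 45.1% higher and 28.2% lower. The median log2 ratio was 1.01 for internal parts and 0.81 for LTRs. All 8 features with under 100 reads over both libraries are LTRs, with 3 higher and 5 lower. Their part in the difference, and that of the family names described next, was not tested.

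A division that the repeat types do not use is the age of the families as their names tell it. Names with RLTR, IAP, ERVB, MuLV, MURVY, MMER, MMTV, BGLII or LTRIS belong to families of the mouse or rodents, and names with MLT, MER, LTR and a number, MamGyp or EUTREP to families shared among mammals. The grouping was made after the values were seen. Of 30 mouse or rodent features, 23 were higher in MT, 14 of them at least 2-fold, and 3 were at least 2-fold lower. Of 17 shared features, 6 were higher, 4 of them at least 2-fold, and 8 were at least 2-fold lower. Of all 71 rows 44 were higher, and the 2-fold rule takes 45.1% in the higher direction and 28.2% in the lower one. For the 24 rows that are not LTR these shares are 58.3% and 37.5%. The 14 of 30 mouse or rodent features are therefore near the share of the whole table.

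Median log2 ratios were 0.99 for mouse or rodent names and -0.88 for shared ones. This grouping overlaps with that by part, since 16 of the 18 internal parts and 14 of the 29 LTRs have mouse or rodent names. Within these names the medians were 1.08 for internal parts and 0.90 for LTRs. None of those 16 internal parts and 3 of those 14 LTRs were at least 2-fold lower. The 12 LTR features whose whole counting interval lay above 2-fold were all of mouse or rodent names. Of all 71 rows 18 passed this rule, and of the 24 rows that are not LTR 6 did. Counting intervals are narrower with more reads, which favours the mouse or rodent names. Shared families had fewer reads, with sums of 504 CPM in WT and 539 CPM in MT, against 6046 and 18303 CPM. Within the features with at least 100 reads the medians were 0.99 and -0.75. In the 35 features left when those of the lowest mean value were dropped, the medians were 0.99 and 0.05, so the lower direction of the shared names is not found there.

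**Figure D4:**
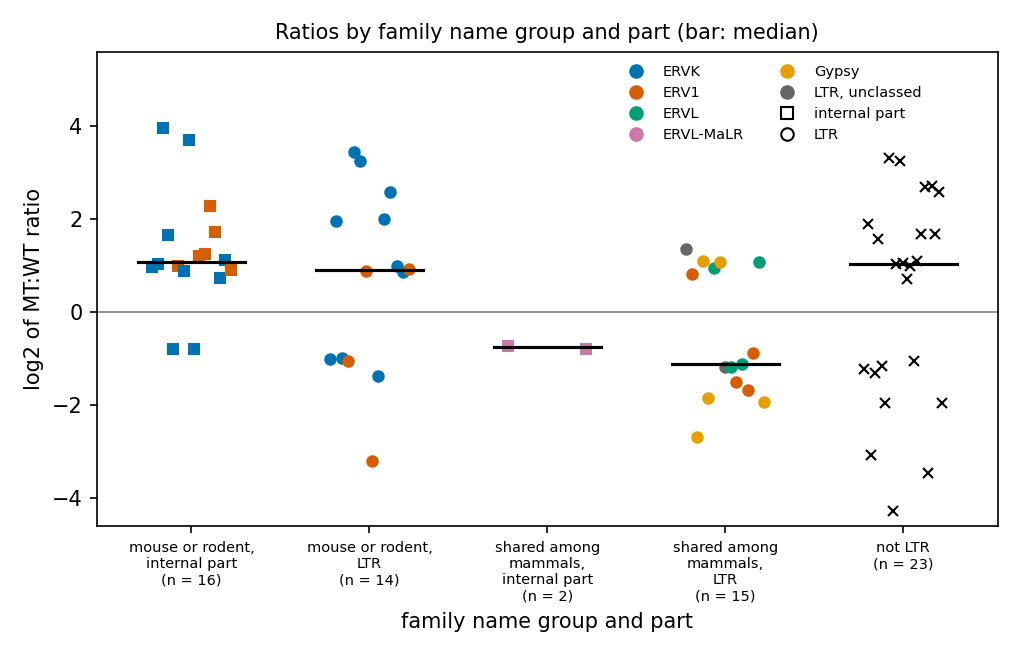
Log2 of the MT to WT ratio (vertical) of LTR features by name group and part and, as crosses, of the 23 rows that are not LTR and have a ratio (horizontal), with bars for medians. As deposited, 14 of 16 mouse or rodent internal parts lie above 0 and 11 of 17 shared features below it, and the rows that are not LTR spread over both sides.

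Ribosomal RNA also differed between the 2 libraries. In the same table the 2 rRNA rows, LSU-rRNA_Hsa and SSU-rRNA_Hsa, made up 2.05% of the scaled library in WT and 20.3% in MT, in libraries that were depleted of rRNA. With both left out of the totals, every log2 ratio is 0.30 higher, 29 LTR features are at least 2-fold higher and 7 lower, and no feature changes direction, while the ERVL median goes from -0.09 to 0.21. Divided by the median ratio of the rows that are not LTR, which lowers every log2 ratio by 1.03, the medians of ERVK and ERV1 go from 1.01 and 0.90 to -0.01 and -0.13, and 18 features are higher than WT. Divided by the total of those rows, of which rRNA is 203309 of 205583 CPM in MT, 4 features are higher, IAP-d-int, MMERVK10D3_I-int, RLTR10D and RLTR10D2. The order of the features is the same under each of these divisions. Rows that are not LTR were themselves selected for a difference, and the part of rRNA in the LTR values was not tested.

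L1MdMus_I, a LINE-1 family of the mouse and the most abundant transposon row that is not LTR, was at 6332 CPM in WT and 1644 CPM in MT. It went opposite to MuLV-int, whose value in MT is 4.84 times that in WT. In WT this LINE-1 row alone was close to the sum over all 47 LTR features, 6550 CPM.

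Host genes that stem from retroelements, and genes that hold LTR elements silent, could be read in the crypts. These came from a setdb1fl/fl control (WT) and from setdb1 iIEC-KO mice (VEMD2, VEMD3, VEMD4, VEMD6 and VEMD8), C57BL/6 mice aged 8 weeks given tamoxifen once at 800 mg/kg, controls included, with a recombinase under the Villin promoter. Epithelial markers such as Epcam summed to 3509 to 5830 FPKM. The 4 stem cell markers, Lgr5, Olfm4, Ascl2 and Smoc2, summed to 619 FPKM in WT and to 520, 314, 153, 174 and 324 from VEMD2 to VEMD8. Olfm4 alone held 574 FPKM of the sum in WT. Lgr5, Olfm4 and Smoc2 were each highest in WT. Ascl2 was not, at 3.55 FPKM in WT and 6.74, 9.99, 7.31, 1.65 and 3.37 from VEMD2 to VEMD8. Krt20 and Vil1, of differentiated epithelium, were at 775 and 575 FPKM in WT and at 1458 and 1140 in VEMD6, the highest of the 6 libraries for both. From VEMD2 to VEMD4 both were below WT, with Krt20 at 376, 308 and 657 FPKM and Vil1 at 520, 383 and 490. In VEMD8 they were above WT, at 869 and 637 FPKM. The part of these markers in the gene values that follow was not tested. Leukocyte markers summed to 4.82 to 8.63 and stromal ones to 0.15 to 0.73. Ratios are log2 after adding 1 FPKM, and a gene was tested where its mean over the 6 libraries reached 1 FPKM. By that rule 2.44%, 6%, 7.1%, 5.04% and 4.36% of all 10862 genes tested were at least 2-fold higher from VEMD2 to VEMD8, and 2.39%, 4.62%, 5.04%, 8.15% and 5.21% were lower. With 1 library per label, "tested" means that the filter was passed, and no p-value was made.

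Of 33 genes listed as derived from retroviruses or Gypsy-like elements, 23 were found and 6 passed the filter. Among these 6, 3 were at least 2-fold from WT in at least 1 library, against 24.5% of all genes tested. None was so in VEMD2, and in each other library 1 was higher and 1 lower. Pnma5, of a Gypsy-derived family, was at 0.03 FPKM in WT and 0.23, 2.04, 6.86, 4.14 and 4.33 from VEMD2 to VEMD8, so it passed the filter through the knockouts alone. Syna, which encodes the retroviral envelope protein syncytin-A, was at 2.63 FPKM in WT and 1.13, 0.55, 0.37, 0.92 and 1.99 in the same order. Rtl8a, another Gypsy-derived gene, was at 2.55 FPKM in WT and lower in all 5, down to 0.49 in VEMD8. Fv1, a retroviral restriction factor that resembles the gag gene of ERVL, had 3.36 FPKM in WT and from 1.81 to 3.73 across knockouts. Gin1, an integrase-like gene, had 4.01 and from 2.88 to 4.21, and Moap1, of the family of Pnma5, had 1.81 and from 1.06 to 3.55.

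Of 26 genes that hold LTR elements silent, all passed the filter. Among these 26, 8 were at least 2-fold from WT in at least 1 library, which is near the 24.5% of all genes tested. From VEMD2 to VEMD8, 2, 4, 4, 1 and 1 were higher, and 3 were lower, Setdb1, Trim28 and Cbx3, all in VEMD6. With each library rescaled so that its median gene has a ratio of 1, 4 of the 8 were at least 2-fold from WT, Resf1, Atf7ip, Daxx and Zfp809, and none was lower, with Setdb1 at -0.97, Cbx3 at -0.95 and Trim28 at -0.79 log2 in VEMD6. Resf1, which restricts retroelements together with SETDB1 in embryonic stem cells, had 15.5 FPKM in the WT crypts and 48.1, 82.0, 119, 69.3 and 70.5 from VEMD2 to VEMD8, and was 2-fold higher in all 5 libraries. Zfp809, the zinc finger protein that binds the primer binding site of murine leukemia virus, had 13.7 FPKM in the WT crypts and 29.2, 40.4, 34.3, 15.5 and 21.1. Atf7ip, the partner that stabilises SETDB1, was at 9.06 FPKM in WT and 18.7, 24.9, 21.1, 13.9 and 18.3. Morc2a, an ATPase that works with the HUSH complex, was at 9.14 FPKM in WT and 18.7, 20.2, 16.9, 8.85 and 14.2. It was at least 2-fold higher in VEMD3 alone, and in no library after rescaling. Setdb1 itself had 9.42 FPKM in WT crypts and from 3.53 to 7.03 across knockouts. The median log2 ratio of the 26 genes was 0.40, 0.42, 0.21, -0.52 and 0.04 from VEMD2 to VEMD8, beside 0.09, 0.12, 0.03, -0.23 and -0.06 over all genes tested. These crypt values are of other animals, another library type and another promoter than the repeat table, so they were not joined to the LTR values.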

How the data were processed

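RNA was sequenced from 8 mouse samples. The submitters' processing notes list HISAT2, featureCounts, edgeR, GRCm38 and mm10. Their roles and versions, and which tool made which table, are not given in the sources used here. The authors deposited CPM per repeat feature in columns headed WT and MT, preselected, with a log2 fold change, a p-value and an adjusted p-value of their own test. Crypt gene values are FPKM as deposited by the authors, per the file headers. The CPM totals are not whole numbers of reads (fractions of 0.386 and 0.138 of a read remain), and the step behind them is not given in the sources used here.

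Ratios of MT to WT used the CPM as deposited with no pseudocount, and reads per feature came from the smallest step of each column. Intervals are exact (Clopper-Pearson, conditional on the sum of both libraries). A feature counted as higher or lower from 2-fold. Crypt ratios used a pseudocount of 1 FPKM. Symbols came from RefSeq by gene identifier. Every LTR row was named. For the crypt lists, the rule named Setdb1 and up to 4 genes per list with the largest absolute median log2 ratio. Outside it stand Fv1, Moap1, Trim28, Cbx3, Daxx and the named rows that are not LTR, chosen after their values were seen. Cell type markers came from fixed lists, and those given singly were picked after their values were seen. The members and lists were chosen with earlier results of these data known. No sequence of an LTR family was printed. Scripts ran in Python 3.11.15 with numpy 2.4.6, pandas 2.3.3 and scipy 1.17.1 and were tested on simulated data.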

Additional observations from a re-analysis of the deposited data

Results flagged for a closer look

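Among the rows of the repeat table that are not LTR features, 3 with at least 100 reads in both libraries were at least 2-fold above the control library. LSU-rRNA_Hsa was 10.0 times as high in MT as in WT, from 160310 reads to 1410354. SSU-rRNA_Hsa was 9.52 times as high. U3, a small nucleolar RNA that takes part in processing of ribosomal RNA, was 2.002 times as high, at 228 and 456 CPM. None of these ratios was tested, since each column is 1 library.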

How the results depend on the processing

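No paired analysis was possible because there was 1 library in every group, and no replicate could be left out. As deposited, 18 LTR features were at least 2-fold higher, 11 lower, and the median log2 ratio was 0.90. Divided by the total of the rows that are not LTR, these became 1, 39 and -2.01, and divided by their median ratio 6, 18 and -0.12. Both divisions only move every ratio by 1 factor, and they use rows that were themselves selected for a difference. With rRNA left out of both totals, a setting added after the data were seen, the values were 29, 7 and 1.20. At 1.5-fold, 29 were higher and 18 lower, and at 4-fold 6 and 2. A pseudocount of 1.36 CPM gave 15 and 9. Of the 11 lower features, 2 were counted when the features of the lowest mean value were left out (35 kept), 6 with at least 100 reads and 3 with the whole counting interval past 2-fold, the last 2 chosen after seeing the data. Without the feature of the highest MT value in each class, shares of the MT total fell from 80.5% to 67.9% for ERV1, from 17.1% to 13.8% for ERVK, from 1.82% to 0.382% for ERVL, from 0.313% to 0.143% for ERVL-MaLR, from 0.227% to 0.0927% for Gypsy and from 0.0704% to 0.0271% for features without a class. In the WT column the shares were 78.6%, 15.5%, 3.53%, 1.52%, 0.526% and 0.312% in that order. In crypts, a pseudocount of 5 FPKM left 1 of 3 retrovirus-derived genes and 5 of 8 silencing genes at least 2-fold from WT, a pseudocount of 0.1 FPKM gave 3 and 11, and rescaling to the median gene gave 3 and 4. With 1 library per group, the spread between mice is unknown for every value.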
